A study of Caenorhabditis elegans with 2 samples.

Results

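The genes examined are the protein-coding genes of Caenorhabditis elegans whose names begin with nhr-, the nuclear hormone receptor family. The WBcel235 annotation (ce11) held 269 of them among 19973 nuclear protein-coding genes. Membership followed the name alone, and no peak value entered that rule. Earlier results of these data were known when the rule was set. Each gene was searched for EGRH-3-eGFP peaks in a window from 1000 bp upstream of a transcript 5' end to the end of the gene. Of the 269 genes, 21 held a peak summit in the conservative peak list, the list that was thresholded on reproducibility between the replicates. That is 7.81% of nhr genes, beside 8.12% of all protein-coding genes.

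Chromatin immunoprecipitation with sequencing (ChIP-seq) was carried out on whole young adult worms at 65 h, synchronised by starvation at the L1 larval stage. The strain, RW12196, carries TY1, EGFP and 3xFLAG tags inserted by CRISPR into egrh-3 at its own locus on chromosome IV, and the immunoprecipitation used an antibody against GFP. The samples formed 1 group of 2 biological replicates, with no second genotype, age or treatment, and whole worms mix all tissues. The labels name a control library, whose reads were not used here, and no peak list of an untagged strain was analysed, so enrichment that does not depend on EGRH-3 was not measured.

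Nuclear receptors are transcription factors with a zinc finger DNA-binding domain and a domain that can hold a small lipophilic ligand such as a steroid, a bile acid or a fatty acid. Nematodes carry a greatly expanded family, in which a small core has counterparts in insects and vertebrates and the remainder descends from an HNF4-like ancestor. In worms, members act in molting, fat metabolism, sterol signalling, detoxification and the specification of neurons. EGRH-3 is named as a homologue of the early growth response (EGR) zinc finger factors, which are known to bind GC-rich sites that contain GTGGGCG.

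The family was read in 3 classes. The conserved class held 11 receptors with counterparts outside nematodes, namely nhr-6, nhr-8, nhr-23, nhr-25, nhr-41, nhr-48, nhr-67, nhr-85, nhr-91, nhr-111 and nhr-239. The others, called worm-specific here, were split by position into 166 on chromosome V and 92 on the other chromosomes. The name was checked against the translated coding sequence, where the cysteine spacing of the first nuclear receptor zinc finger was found in 211 of 269 nhr genes (78.4%), in all 11 of the conserved class and in 101 of 19704 other protein-coding genes (0.513%). It was present in 20 of the 21 genes that held a summit.

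The files give peaks, each with an interval, a summit (the position of highest enrichment) and a signal, which is the authors' measure of enrichment against control with no stated scale. The global irreproducible discovery rate (IDR) estimates how many of the peaks down to a given rank would not repeat between replicates, and low values mark repeatable peaks. The lists hold no read counts, so the depth behind each value is unknown. There are 4 thresholded lists: the conservative list with 2194 nuclear peaks, a larger list of both replicates with 3254, and 1 list for each replicate, with 2850 peaks in replicate 1 and 1439 in replicate 2. Signals of different lists do not share a scale, and the ranked lists, which reach far below the IDR threshold, gave each replicate's own signal at a summit. The intervals beside the shares of genes are exact 95% binomial intervals and cover counting error only.

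The conserved receptors were the class with the highest share of genes holding a summit. It was 4 of 11 (36.4%, interval 10.9 to 69.2%), against 8 of 166 on chromosome V (4.82%, 2.10 to 9.27%) and 9 of 92 elsewhere (9.78%, 4.57 to 17.8%). The share over the whole family was 7.81% (4.90 to 11.7%), beside 8.12% of all protein-coding genes. All chromosome V genes together stood at 6.11%, so the expanded group lay near its own chromosome. In the conservative list the interval of the conserved class rests on 4 genes. The intervals treat genes as independent, and no test between classes was run. In the list of replicate 2 the intervals were 2.28 to 51.8% for the conserved class and 0.374 to 5.19% for chromosome V.

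**Figure D1:**
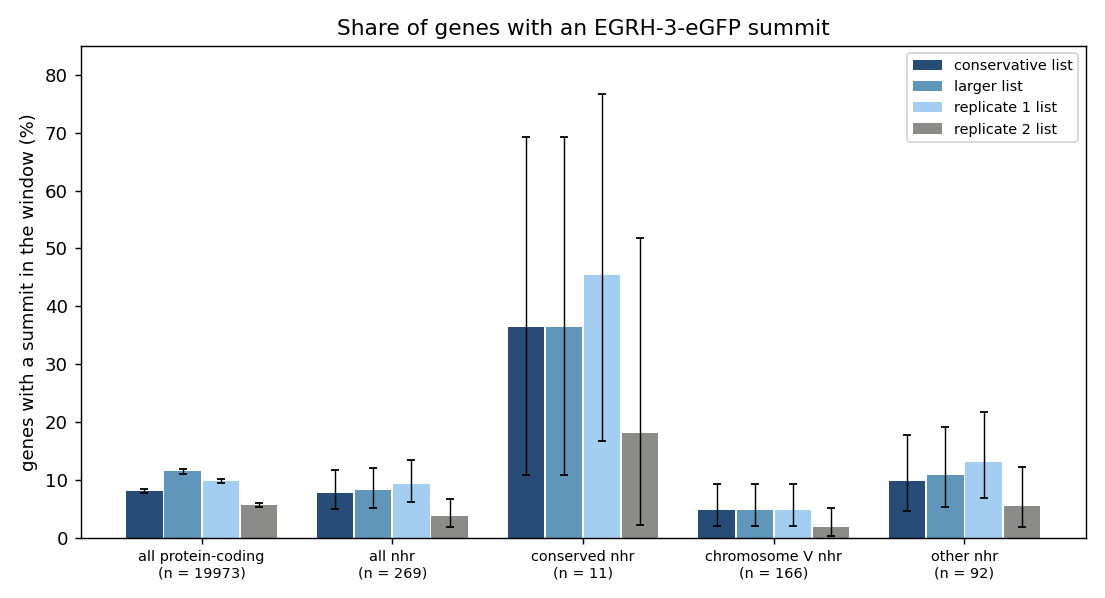
Bars show the share of genes with a summit in the window (y axis, %) for 5 groups of genes in the 4 thresholded lists, with exact 95% binomial intervals as error bars. The chromosome V and other groups leave out the conserved receptors. In the conservative list the conserved receptors stand at 36.4%, the chromosome V receptors at 4.82% and all protein-coding genes at 8.12%.

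Conserved receptors also had longer windows. The median window was 6472 bp in the conserved class, 3146.5 bp on chromosome V, 3804 bp elsewhere and 3027 bp over all protein-coding genes. Per megabase of window, the conserved class held 77.3 summits, the chromosome V receptors 20.2, the others 18.8 and all protein-coding genes 22.3. The value of the conserved class rests on 6 summits, and the part of window length in the class shares was not tested.

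Within the family the share of genes with a summit rose with the length of the window, as it did over all genes. Of 93 nhr genes with a window under 3000 bp, 1 held a summit (1.08%, against 5.92% of all genes of that length). The gene was nhr-255, whose summit lay in a tRNA gene. In the range from 3000 to under 5000 bp the counts were 6 of 119 (5.04%, against 6.21%), and from 5000 to under 8000 bp they were 8 of 41 (19.5%, against 11.5%). At 8000 bp and over, 6 of 16 nhr genes (37.5%) and 20.8% of all genes held a summit. The 21 genes with a summit had a median window of 5704 bp and the other 248 of 3247 bp.

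**Figure D2:**
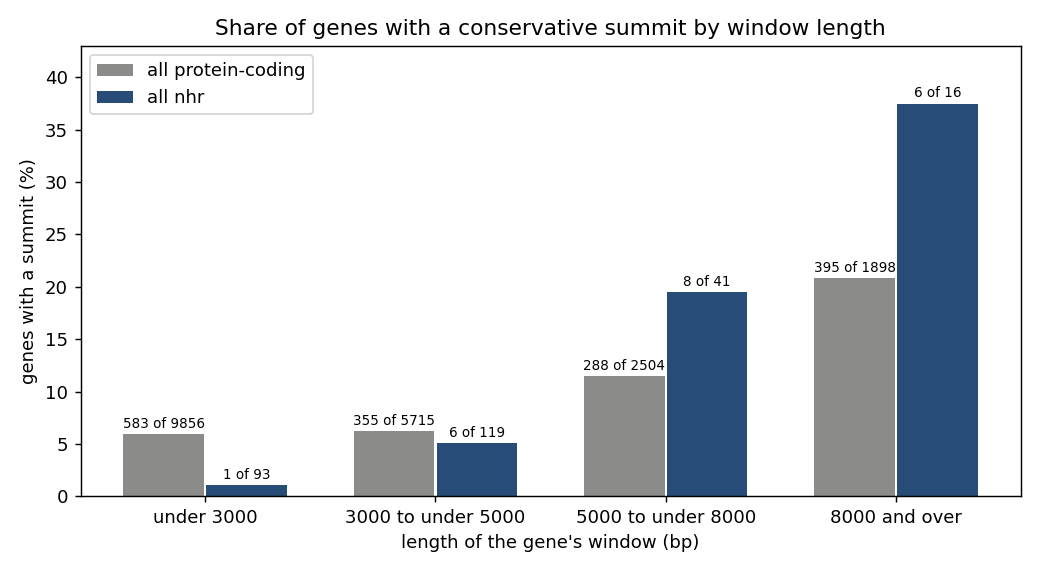
Bars show the share of genes with a conservative summit (y axis, %) by the length of the window (x axis, bp) for all protein-coding genes and for nhr genes, with the counts above each bar. The nhr share runs from 1.08% under 3000 bp to 37.5% at 8000 bp and over, and the share of all genes from 5.92% to 20.8%.

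Genes with another family member nearby seldom held a summit. Of 159 nhr genes with another nhr gene within 10000 bp, 3 had one (1.89%): nhr-59, nhr-145 and nhr-247. Of the 110 genes with none that near, 18 did (16.4%). Over all protein-coding genes the share was 8.12%. These 110 include all 11 conserved receptors, of which 4 had a summit. For the worm-specific receptors of chromosome V the same split gave 3 of 122 (2.46%) and 5 of 44 (11.4%), beside 6.11% of all genes there. With chromosome V divided into 3 parts of equal length, the counts were 4 of 78 on the left, 1 of 41 in the centre and 3 of 47 on the right, where all genes stood at 6.18%, 6.73% and 5.36%. The genes with a near neighbour had a median window of 3140 bp and the others of 4221 bp. Among windows of 5000 bp and over, 1 of 13 genes with a near neighbour and 13 of 44 without had a summit. Over all genes 11.5% had one from 5000 to under 8000 bp and 20.8% at 8000 bp and over. On chromosome V the median windows were 3123 and 3186 bp. All genes were not split by neighbours, and the parts of neighbours, window length and class were not tested.

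Promoter summits were counted from 1000 bp upstream to 200 bp downstream of a 5' end. In the conservative list 13 nhr genes (4.83%) had one, beside 4.86% of all protein-coding genes, and 8 (2.97%) had summits only past the promoter, beside 3.25%. The 27 summits fell in 26 intervals. Of them 17 lay in promoters, 9 in introns, 1 in a 3' UTR and 0 in coding exons of the receptor. Over all genes, 51.7% of 2049 summit and gene pairs lay in promoters, 19.9% in introns and 27.0% in coding exons. Promoters made up 34.0% of the bases in nhr windows and 34.5% of those in all windows.

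The promoter summits of nhr genes lay at a median of 471 bp upstream of the nearest 5' end, against 299 bp over all promoter summits. They ranged from 961 bp upstream at nhr-141 to 175 bp downstream at nhr-41. Intron summits lay from 338 bp downstream of the nearest 5' end at nhr-59 to 2816 bp at nhr-104, and that end can be an inner one. The nearest summits left outside the windows were at nhr-86, a receptor that takes part in the response to bacterial pathogens, where they lay 1238 and 1446 bp upstream with signals of 101.8 and 11.4. A further summit lay 1862 bp upstream of nhr-247, with a signal of 594.7. Just inside the limit were nhr-141 at 961 bp and nhr-247 at 920 bp upstream.

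**Figure D3:**
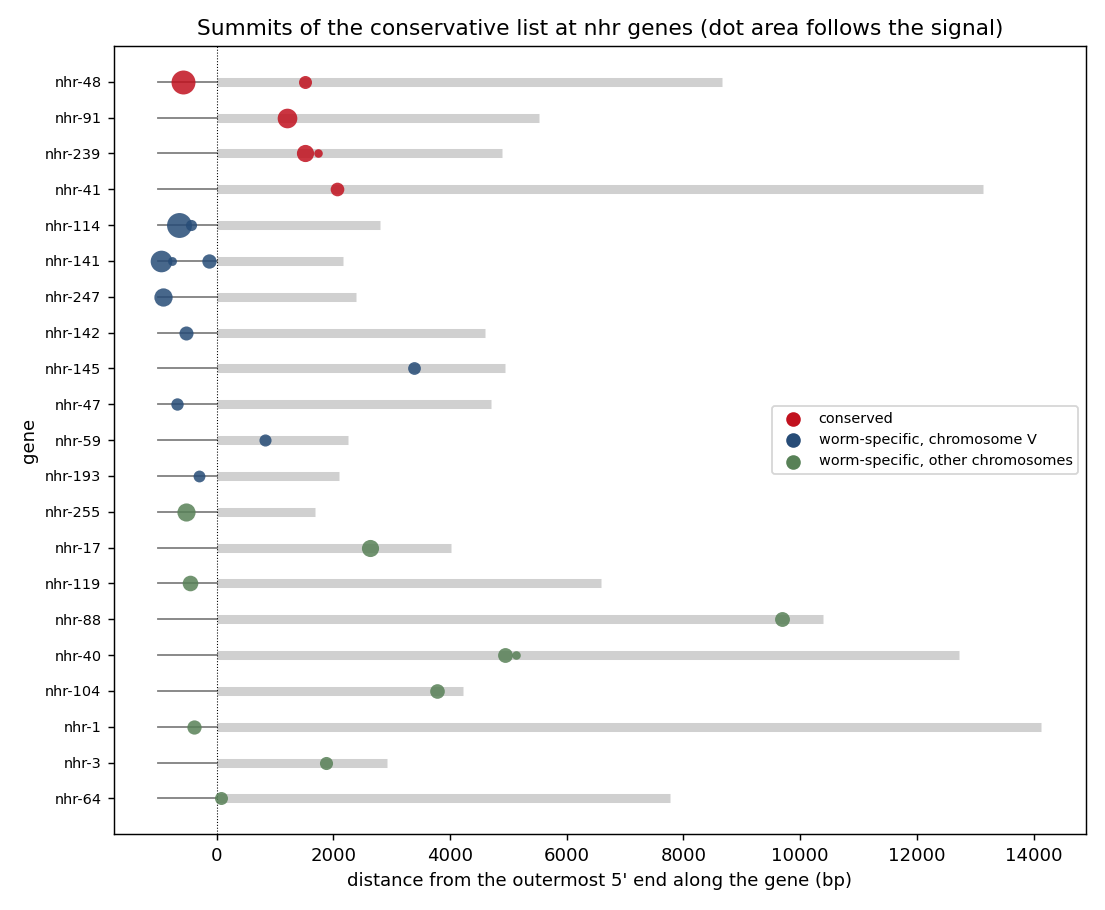
Each row is an nhr gene with a conservative summit, drawn as a grey bar from its outermost 5' end with 1000 bp upstream as a thin line (x axis, bp), and dots mark summits with an area that follows the signal. Colours give the 3 classes. The 3 summits of nhr-141 and both of nhr-114 lie upstream of the gene, while those of nhr-41 and nhr-40 lie inside the gene near an inner 5' end.

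In the conservative list the nhr summits had a median signal of 119.6 (range 32.0 to 401.7) and a median rank of 1326 among 2194 summits, and 4 of 27 stood among the 548 strongest. The median over all summits was 139.8. The order turned in the larger list, where the nhr median was 121.3 and that of all peaks 112.7. In the list of replicate 1 the medians were 66.4 and 83.1, and in that of replicate 2 they were 66.7 and 67.6. The ratio of replicate 1 to replicate 2 signal had a median of 1.36 over 25 nhr summits (range 0.852 to 6.83), beside 1.64 over all summits. The lists of the replicates do not share a scale, so a ratio near 1 is not by itself agreement. The median GC content of the 101 bases at nhr summits was 54.5%, and it was 57.4% over all summits.

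The strongest summit of the family lay at nhr-114, an HNF4-like receptor of the gut that protects the germ line on poor diets. The gene lies at chrV:4187202-4190008 on the plus strand. Its main summit, 637 bp upstream, had a signal of 401.7, with 217.0 in replicate 1 and 180.5 in replicate 2 and a global IDR of 1.67e-05. The ratio of replicate 1 to replicate 2 was 1.20 there, and the gene was called in all 4 lists. The summit also lies in an intron of Y45G5AM.9, and a weaker summit with a signal of 65.95 lies 436 bp upstream in the same interval.

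The next strongest lay at nhr-48, a relative of the vitamin D and pregnane X receptors (chrX:15708213-15716875, plus strand). Its promoter summit, 571 bp upstream, had a signal of 370.1, with 248.7 and 119.2 in replicates 1 and 2. A further summit in intron 1 of 15 had a signal of 96.6, with 45.02 and 48.02. The ratio of replicate 1 to replicate 2 was 2.09 at the promoter summit and 0.938 at the intron summit, beside a median of 1.64 over all summits.

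Intron 3 of 7 of nhr-91, the worm counterpart of germ cell nuclear factor (chrX:15309369-15314899, plus strand), held a summit with a signal of 243.1. It was 211.3 in replicate 1 and 30.9 in replicate 2, a ratio of 6.83, the widest of the family. The peak was called in the list of replicate 1 and not in that of replicate 2, so its level rests mainly on replicate 1.

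A summit 455 bp upstream of nhr-119 (chrII:2794016-2800600, minus strand) had a signal of 147.2, with 79.3 and 66.7 in the replicates. What it shares with the main summits of nhr-114, nhr-48 and nhr-91 is a run of a single base in the 101 bases centred on the summit. These windows are shown for that reason, 5' to 3' on the plus strand of WBcel235, with the run in capitals.
nhr-48, chrX:15707592-15707692: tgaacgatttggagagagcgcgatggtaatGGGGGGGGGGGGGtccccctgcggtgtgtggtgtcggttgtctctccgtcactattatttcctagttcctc
nhr-91, chrX:15310519-15310619: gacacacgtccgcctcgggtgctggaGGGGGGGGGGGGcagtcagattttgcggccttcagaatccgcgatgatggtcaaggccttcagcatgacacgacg
nhr-114, chrV:4186515-4186615: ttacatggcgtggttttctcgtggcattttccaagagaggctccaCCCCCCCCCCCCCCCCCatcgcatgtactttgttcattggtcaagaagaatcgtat
nhr-119, chrII:2801005-2801105: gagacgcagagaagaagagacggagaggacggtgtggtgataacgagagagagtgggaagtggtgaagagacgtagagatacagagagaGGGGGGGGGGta

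The run had 13 G at nhr-48, 12 G at nhr-91, 17 C at nhr-114 and 10 G at nhr-119. A run of at least 8 G or C was found at these 4 of 27 nhr summits (14.8%), at 3.97% of all summits and in 0.244% of windows of the same length tiled over the genome. This feature and those that follow were picked after the sequences had been seen, so the counts describe the summits and support nothing further. Summits of the family without such a run include the intron summit of nhr-239 and the promoter summit of nhr-1, shown for contrast on the same strand and with no capitals.
nhr-239, chrIII:2563182-2563282: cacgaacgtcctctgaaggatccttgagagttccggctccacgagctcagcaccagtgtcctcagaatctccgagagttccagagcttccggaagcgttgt
nhr-1, chrX:17513630-17513730: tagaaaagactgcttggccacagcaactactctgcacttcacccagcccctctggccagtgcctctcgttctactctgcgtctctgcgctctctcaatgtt

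The nhr-239 gene (chrIII:2561710-2566595, plus strand) is counted among the conserved receptors. Its stronger summit had a signal of 181.8, with 135.4 in replicate 1 and 49.5 in replicate 2, and lies in intron 3 of 6, which spans 2858 bp. The same base lies in a coding exon of Y54F10AM.11, a gene nested there, so the summit cannot be given to either gene alone. At nhr-1 (chrX:17514063-17528197, plus strand) the summit lay 383 bp upstream with a signal of 119.6, with 55.7 and 65.4 in replicates 1 and 2.

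A tRNA gene lay within 50 bp of 3 further nhr summits. At nhr-41, the counterpart of the Drosophila orphan receptor DHR78 and a gene needed for molting, the summit (signal 108.3, with 55.1 and 54.7 in the replicates) lay in a tRNA-Glu gene at chrIV:1388216-1388287. At nhr-255 the summit, 533 bp upstream (signal 204.8, with 112.7 and 96.1), lay in a tRNA-Leu gene at chrX:15742050-15742133. At nhr-17 the summit in intron 7 of 8 (signal 180.7, with 100.5 and 84.2) lay 5 bp from a tRNA-Tyr gene at chrX:12665228-12665311. All 3 genes were called in every thresholded list. Products are from the RefSeq annotation of the same assembly. Of 5 nhr genes with a tRNA gene in the window, 4 held a summit, and of 326 such genes over the genome 34.7% did. The fourth was nhr-193, whose summit lay 155 bp from the nearest tRNA gene, and nhr-150 had a pair of tRNA genes and no summit.

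Repeats made up the remaining marked summits. The 3 summits of nhr-141 (chrV:7444661-7446833, plus strand), at 961, 759 and 123 bp upstream, held 5, 2 and 3 copies of the 8-base unit CTACAGTA on the plus strand or its complement. Their signals were 298.6, 35.3 and 121.3. The strongest had 152.7 and 151.9 in replicates 1 and 2. At least 2 copies of that unit were found at 13 of 2194 summits (0.593%), 3 of them at nhr-141. The summit of nhr-247, 920 bp upstream with a signal of 208.2 (171.2 and 46.7 in the replicates), lay in a tandem repeat with a period of 15 bases whose bases matched the next copy at 97.7%. The summit in intron 9 of 9 of nhr-104 lay in a TG repeat and had a signal of 127.0, with 84.0 in replicate 1 and 43.05 in replicate 2.

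In all, 12 of the 27 nhr summits (44.4%) had a tRNA gene, a run of G or C, a tandem repeat or the 8-base unit, against 18.4% of all summits. They lay in 10 of the 21 genes and included 8 of the 10 strongest summits of the family. Their median signal was 192.8, and that of the other 15 was 96.2. Without these summits, 13 nhr genes (4.83%) and 7.24% of all genes had a summit, and 7 (2.60%) and 4.401% had a promoter summit. The features were picked at nhr summits, so leaving them out favours a larger fall in the nhr share. The shares before and after therefore support nothing further about the family. Conserved receptors then numbered 2, nhr-48 by its intron summit and nhr-239.

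**Figure D4:**
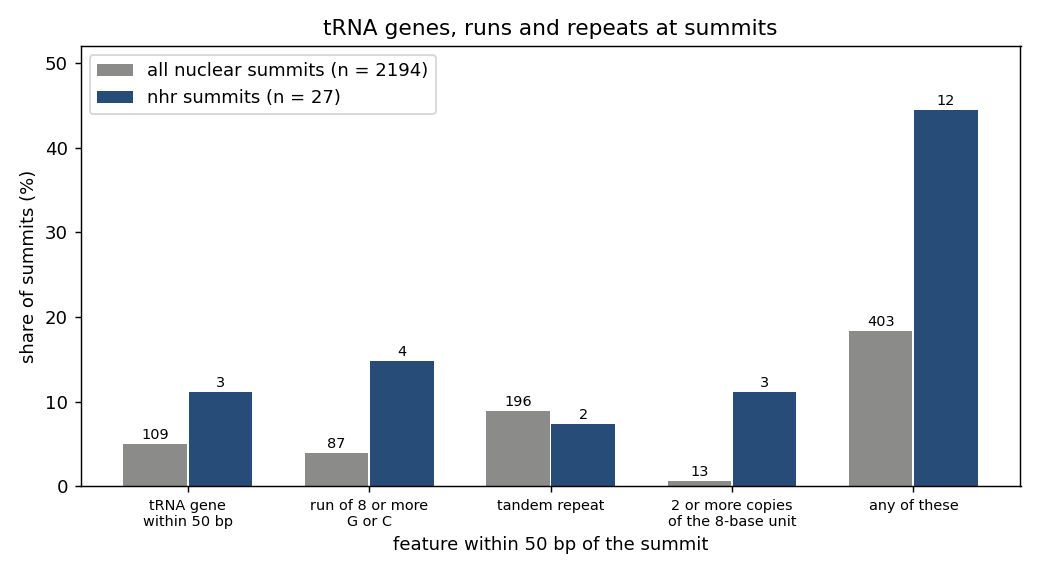
Bars show the share of summits (y axis, %) whose 101 bases hold each feature (x axis) for all 2194 nuclear summits and for the 27 nhr summits, with the number of summits above each bar. Any of the features was present at 44.4% of nhr summits and 18.4% of all summits. The features were picked after the sequences of the nhr summits had been seen.

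The EGR letters GTGGGCG or GTGGGTG, searched on both strands, were within 50 bp of 1 of 27 nhr summits (3.70%). They were within the same distance of 71 of 2194 summits (3.24%) and in 1.11% of genome windows of the same length. The match was GTGGGTG at nhr-41, inside the tRNA gene. Over promoters, 15.2% of nhr genes and 12.5% of all protein-coding genes held either. None of the 101-base windows printed above holds these letters.

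The remaining summits were of lower or middle signal. On chromosome V, nhr-142 had a summit 533 bp upstream with a signal of 115.7 (58.7 and 59.3 in the replicates), in a promoter it shares with F44E7.9. The summit counted for nhr-47 had 86.2 and lay in a coding exon of dnj-19, a DnaJ chaperone gene, while those of nhr-145 (92.4) and nhr-59 (81.6) lay in introns 5 of 8 and 2 of 4. Outside chromosome V, nhr-40, which acts in muscle and embryonic development, had summits of 130.9 and 32.4 near an inner 5' end. At nhr-64, an HNF4-like receptor, the summit lay inside the gene, 65 bp upstream of an inner 5' end, with a signal of 96.2 (58.2 and 42.4 in the replicates). The summits of nhr-88 (131.7, in the 3' UTR) and nhr-3 (98.1, intron 5 of 6) lay further inside. Those of nhr-3 and nhr-193 (77.2) were in neither list of a single replicate. The nhr-3 summit was also absent from the larger list, which held that of nhr-193.

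**Figure D5:**
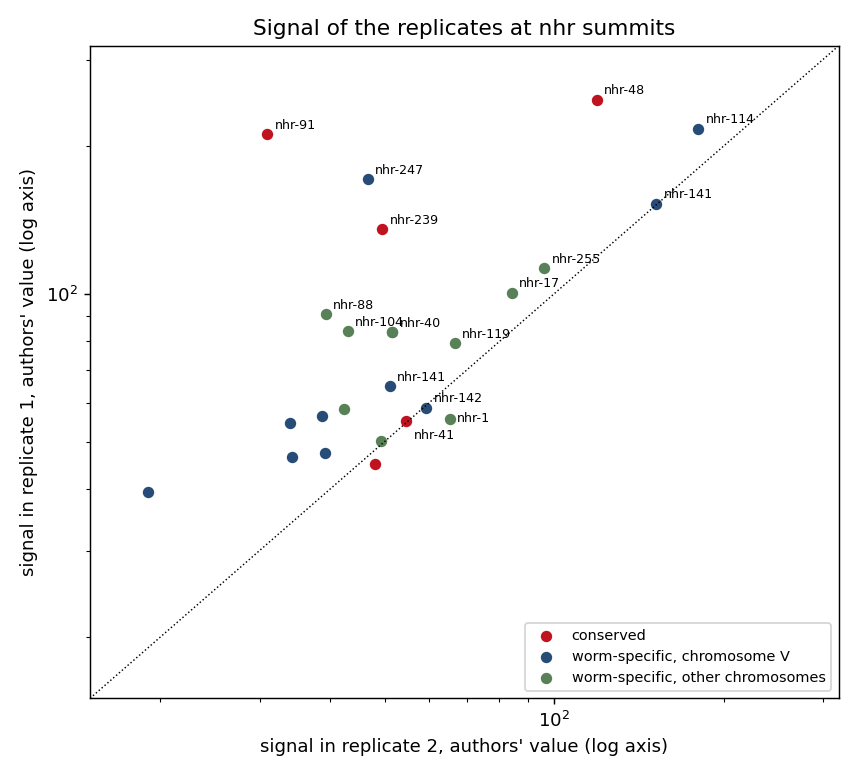
Each dot is an nhr summit with a value in both replicates, by its signal in replicate 2 (x axis, log scale) and replicate 1 (y axis, log scale), with equality dotted and names given where the combined signal is above 100. nhr-91 lies farthest from the line (211.3 against 30.9), while nhr-114, nhr-141 and nhr-255 lie near it. The replicate lists do not share a scale, and the median ratio of replicate 1 to replicate 2 over all summits is 1.64.

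The share of nhr genes with a summit was highest on the X chromosome. Of 23 nhr genes on X, 7 had a summit (30.4%), against 7.87% of all X genes. They were nhr-1, nhr-3, nhr-17, nhr-40, nhr-48, nhr-91 and nhr-255. Their windows spanned 15135, 3929, 5018, 13730, 9663, 6531 and 2689 bp in that order, beside a family median of 3309 bp. Of them, nhr-48 and nhr-91 belong to the conserved class. The parts of chromosome, window length and class in this share were not tested. Of the 9 summits on X, 4 had a tRNA gene or a run of G or C, and over all summits on X 26.7% had one of the features.

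The lists of single replicates gave unequal numbers. In the list of replicate 1, 25 nhr genes (9.29%) had a summit, beside 9.82% of all genes, and 19 (7.06%) had a promoter summit, beside 5.03%. In that of replicate 2 there were 10 (3.72%), beside 5.7%, and 9 (3.35%) with a promoter summit, beside 3.6%. The larger list held 22 (8.18%), beside 11.5%, and 15 (5.58%) with a promoter summit, beside 6.57%. The promoter share of nhr genes was thus above that of all genes in replicate 1 and below it in the other 2. Each of the 10 genes of replicate 2 was also in the list of replicate 1, and 10 genes were in all 4 lists. Over all lists 27 genes had a summit and 242 had none. No share of all protein-coding genes was set beside these counts across lists, so they describe the family only.

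The 6 genes found only outside the conservative list had promoter summits. At nhr-23, the counterpart of Drosophila DHR3 and a driver of molting, replicate 1 had a summit inside the gene, 76 bp upstream of an inner 5' end, with 98.8 and an intron summit with 66.4, while the highest region of replicate 2 in the window had 29.4. The others were nhr-217 (95.6) and nhr-236 (63.1), both also in the larger list, and nhr-241 (87.0), nhr-80 (63.6) and nhr-137 (60.9) in replicate 1 alone. nhr-80 is known for its part in fatty acid desaturation and long life without a germ line.

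Of the conserved receptors without a conservative summit, all but nhr-23 had none in any thresholded list. In the ranked list of both replicates, the best of nhr-25, the counterpart of FTZ-F1 and SF-1 that acts in the epidermis and molting, was a promoter region with a signal of 48.2 and a global IDR of 0.0742. In the ranked lists of the single replicates it reached 32.8 in replicate 1 and had no region in replicate 2. The best IDR was 0.348 at nhr-6, the NR4A receptor of the spermatheca, and 0.443 at nhr-85, the E75 counterpart. That of nhr-23 was 0.471. The highest signals of nhr-6 were 14.5 and 17.4 in replicates 1 and 2, and those of nhr-85 were 19.9 and 21.9. nhr-8, a sterol and xenobiotic receptor, and nhr-67, the tailless counterpart, had no region in the list of both replicates. The highest single-replicate signals were 8.39 and 11.4 at nhr-8 and 16.8 at nhr-67, in replicate 2 alone. nhr-111 had no region in any ranked list. Over the family, 86 of 269 genes (32.0%) had a ranked region in the window, 8 of 11 in the conserved class, 38 of 166 on chromosome V (22.9%) and 46.1% of all genes.

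The receptors were also read by role in the conservative list, in which 8.12% of all protein-coding genes had a summit. Of 6 receptors tied to molting (nhr-23, nhr-25, nhr-41, nhr-67, nhr-74 and nhr-85), 1 had a summit, nhr-41. Of 10 with roles in metabolism or detoxification (nhr-8, nhr-10, nhr-13, nhr-49, nhr-62, nhr-66, nhr-68, nhr-80, nhr-86 and nhr-114), 1 had one, nhr-114. The best promoter region of nhr-49, which controls fat use and desaturation, had a signal of 56.9 and a global IDR of 0.0605, and that of nhr-66, its partner in lipid genes, 63.2 and 0.0463. Both stayed outside the thresholded lists.

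Receptors outside the nhr names and their partners were read in the same way. Of 5 nuclear receptors with other names (daf-12, fax-1, odr-7, sex-1 and unc-55), 2 had summits, both in introns, beside 8.12% of all protein-coding genes. At daf-12, the receptor for dafachronic acids that sets the choice of dauer arrest, the signal was 453.6, above every nhr summit. That summit had 365.0 in replicate 1 and no value in replicate 2. The list of replicate 2 held a nearby intron summit of daf-12 with 113.2. At unc-55, which sets motor neuron identity, the signal was 156.5 (107.4 and 49.8 in the replicates). Of 11 cofactor, ligand enzyme and target genes, 3 had summits, beside the same 8.12%. Such short lists show no more than these counts. They were din-1, a corepressor of DAF-12, with promoter summits of 390.9, 249.2 and 213.9, cbp-1, an acetyltransferase coactivator, with 119.7 in its promoter and 90.2 in a coding exon, and ncr-2, a sterol transporter, with 771.4 in an intron (545.3 and 227.8 in the replicates). mdt-15, the Mediator subunit that works with NHR-49, had a summit in the larger list and in replicate 1 only, and daf-9, daf-36, hsd-1, ncr-1, fat-5, fat-6 and fat-7 had none in the conservative list.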

How the data were processed

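ChIP-seq peaks of 2 biological replicates of 1 group were read from lists on ce11, per the file headers. The signal is the authors' deposited enrichment value of each peak, with no stated scale. The authors also deposited −log10 q-values and, for ranked lists, −log10 values of the global IDR. The deposited score follows the IDR. The thresholded lists had passed the authors' IDR filter. The aligner and the peak caller are unnamed in the sources used here.

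Genes and 5' ends came from the Ensembl annotation of WBcel235, tRNA products and the genome letters from RefSeq. Each summit was given to every gene window that held it, and classed as promoter first, then by exon or intron. Replicate signals were those of the strongest region covering the summit in each replicate's ranked list. A tandem repeat matched itself at 80% or more of bases at a shift of 5 to 50 bases. The members, classes and gene lists were chosen with earlier results of these data known, and the conserved class and role lists come from general knowledge. Of 12 cofactor, enzyme and target names, 11 matched the annotation. No test between conditions was possible, and set tests were not run. All 21 genes with a summit and the members outside the conservative list are named. A further ranked list of the series was not used. Alternatives are in the closing section, and those leaving out tRNA genes, runs and repeats were chosen after seeing the data. Python 3.11.15, numpy 2.4.6, pandas 2.3.3, scipy 1.17.1 and matplotlib 3.10.9 were used.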

Additional observations from a re-analysis of the deposited data

How the results depend on the processing

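No paired analysis was possible because the samples form 1 group. A replicate was left out by using the other's own list: the number of nhr genes with a summit then ranged from 10 to 25, with a promoter summit from 9 to 19, with summits only past the promoter from 1 to 6, conserved receptors from 2 to 5, chromosome V receptors from 3 to 8 and others from 5 to 12. The lower number was from replicate 2 each time. The median signal was 66.4 to 66.7 in these lists, whose scale differs, and 121.3 in the larger list, where it stood above the 112.7 of all peaks. With a global IDR under 0.001 the counts were 8 genes (2.97% of nhr genes, against 3.84% of all genes), 6 with a promoter summit, 2 only past it, 2 conserved, 3 on chromosome V and 3 elsewhere, with a median signal of 204.8. With signals above the list's median they were 9 (3.35% of nhr genes, against 4.37% of all genes), 6, 3, 3, 3 and 3, with a median of 208.2. The promoter counts were 2.23% of nhr genes under both settings, against 2.07% and 2.26% of all genes. GTGGGCG or GTGGGTG then had 0% under both, and 0% within 25 bp, where median GC was 56.9%. A window of 500 bp upstream gave 8 genes with a promoter summit (2.97%, against 3.38% of all genes). It gave 5 chromosome V receptors with a summit, and so did the nearest or holding gene alone. Without summits near tRNA genes the count was 18 (6.69%, against 7.75% of all genes). Without runs and repeats as well it was 13, with 7 promoter genes, 2 conserved receptors and 5 outside chromosome V. Windows of 2000 bp, peak midpoints, interval overlap and protein-coding transcripts moved each gene count by less than 1.5 times. Counting nhr-64 and nhr-69 as conserved gave 5 conserved genes with a summit. Depth is unknown, so a gene with no summit is one in which none was called, and few genes a class leave the shares wide.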
